A study of Mus musculus with 4 samples.

Results

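The cells described here are T cells of dispersed mouse pancreatic islets in which no transcript of the CD8 co-receptor was counted. A cell was taken when it held at least 2 unique molecular identifiers (UMIs, each standing for 1 captured RNA molecule) summed over Cd3d, Cd3e and Cd3g, no UMI of Cd8a or Cd8b1, fewer than 2 UMIs of the B cell gene Cd79a, and under 10% of its UMIs from the hormone genes Ins1, Ins2, Iapp, Gcg, Sst, Ppy and Pyy. Cells also needed 500 genes or more and no more than 20% of UMIs from mitochondrial genes. Of the 16146 cells that passed this filter, 357 met the rule, a share of 2.21% (exact Clopper-Pearson 95% interval 1.99 to 2.45%). The cells were thus chosen by their counts of these genes, whose levels are given as description only.

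The single-cell RNA-seq samples came from NOD mice, a strain that develops autoimmune diabetes. Per the labels, 2 samples carried the genotype Xbp1{beta}-/-, a deletion of the unfolded-protein-response transcription factor Xbp1 in beta cells, and 2 were Xbp1fl/fl, in which the allele is floxed. All 4 were islets from mice aged 5 weeks that had received tamoxifen (10 mg/ml solution), which switches on Cre recombinase where it is carried. The labels do not name the promoter of Cre, and the genotype label Xbp1fl/fl names no Cre. The islets were picked by hand, spent a night in culture and were dispersed with accutase, and libraries followed the 10x protocol. The barcodes carry library numbers 1 to 4, and no label ties a number to a sample, so no library could be given a genotype. Each library's value is therefore shown, no test was run between libraries or genotypes, and intervals cover counting error only.

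T cells recognise antigen through a receptor made of an alpha and a beta chain or, in a smaller lineage, a gamma and a delta chain, and the CD3 proteins pass the signal on. Alpha-beta T cells carry either CD4, which binds MHC class II and marks helper and regulatory cells, or CD8, which binds MHC class I and marks cytotoxic cells. Regulatory T cells depend on the transcription factor Foxp3 and restrain other T cells, and in NOD mice their loss speeds the autoimmune attack on the islets. Gamma-delta T cells do not need either co-receptor and often live in tissues, where some of them make interleukin-17.

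The 4 libraries differed before any T cell was considered. Cells with no CD3 UMI and at least 10% hormone UMIs made up 31.4%, 91.6%, 44.2% and 94.0% of kept cells in libraries 1, 2, 3 and 4. Libraries 2 and 4 were thus mostly hormone cells, and libraries 1 and 3 held more of other types. Kept cells had median depths of 13287, 33052, 15759 and 27499 UMIs in these libraries. Between pairs of libraries, 28 barcodes were shared among kept cells and 0 among the T cells without CD8 transcripts.

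These T cells numbered 177, 46, 129 and 5 in libraries 1 to 4. Their share of kept cells was 4.87% (4.19 to 5.62%) in library 1, 0.873% (0.640 to 1.16%) in library 2, 3.73% (3.13 to 4.42%) in library 3 and 0.132% (0.0429 to 0.308%) in library 4. The shares were high where hormone cells were few and low where they were many, and the part of recovery in this difference was not tested. Library 4 held too few cells for shares of its own, so most values below rest on libraries 1 to 3. The cells had a median of 4084 UMIs (range 801 to 145506) and 1732 genes. For comparison, 54 cells met the same limits with at least 2 CD8 UMIs (27, 7, 19 and 1 by library; median 5156.5 UMIs) and are called CD8 T cells below. B cells, with at least 2 Cd79a UMIs and no CD3 UMI, numbered 1249 (median 4574 UMIs).

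**Figure D1:**
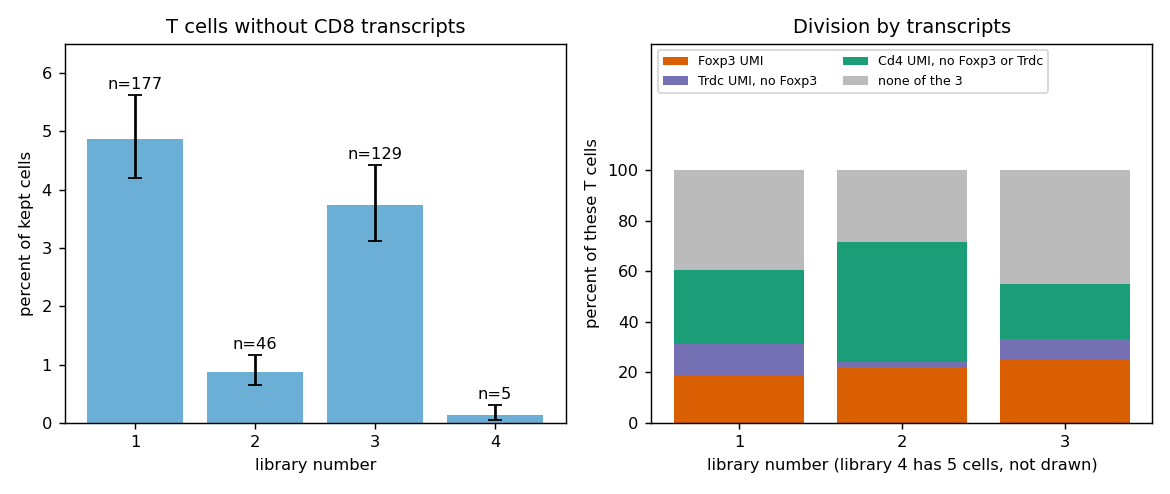
Left, T cells without CD8 transcripts as a percentage of kept cells in libraries 1 to 4, with exact 95% intervals and cell numbers of 177, 46, 129 and 5. Right, for libraries 1 to 3, the percentage of these T cells with a Foxp3 UMI, with a Trdc UMI, with a Cd4 UMI or with none of these, taken in that order; Foxp3-positive cells made up 18.6%, 21.7% and 24.8%.

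The limits of the rule passed through a sparse range. Of 28 cells with 1 CD3 UMI that otherwise met the rule, 3.57% had a UMI of Trac, the alpha-chain constant gene, and 42.9% had any receptor constant UMI. Of the 25 members with exactly 2 CD3 UMIs, 36.0% had Trac and 92.0% any receptor constant, and of the 199 with at least 10, 81.4% had Trac and 100% any constant. At the CD8 limit, the 26 cells with a single CD8 UMI, which belong to neither class, had Trac in 88.5%, Cd4 in 19.2% and Foxp3 in 34.6%. At the hormone limit, 25 members had 5 to 10% hormone UMIs and 16 cells fell outside at 10 to 15%.

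The markers named for these cells were present. Cd3e, which the rule used, was seen in 86.0% of them. Levels are a gene's UMIs per 1000000 UMIs of the cells summed (CPM). Trac (GRCm38 chromosome 14, 54220521 to 54224206, plus strand) had 262, 554, 327 and 535 CPM in libraries 1 to 4, and a UMI in 70.9% of cells, against 382.5 CPM and 87.0% in CD8 T cells, 0.240% of B cells and 0.461% of hormone cells. Of the 357 cells, 104 (29.1%) had no Trac UMI but only 12 had no UMI of any receptor constant gene, alpha, beta, gamma or delta. Trac was thus far more frequent than in B cells and hormone cells, which were themselves chosen for having no CD3 UMI.

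Cd4, the helper co-receptor (chromosome 6, 124864692 to 124888221, minus strand), was counted in 153 of the 357 cells (42.9%). Its level was 73.4, 195, 81.5 and 89.2 CPM in libraries 1 to 4, against 0, 28.0, 0 and 0 CPM in the CD8 T cells of the same libraries. The groups did not overlap, and in CD8 T cells Cd4 came to 2 UMIs in 1 cell. No B cell of 1249 had a Cd4 UMI, and 0.0814% of hormone cells did. When every cell was thinned to 2000 UMIs, which left out 23 shallower members and 1 CD8 T cell, the expected share with Cd4 was 21.4% against 1.03% in CD8 T cells. Detection of Cd4 thus depended strongly on depth, and a cell with no Cd4 UMI cannot be told apart from a cell whose Cd4 RNA was missed.

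Tnfrsf4, the co-stimulatory receptor OX40 (chromosome 4, 156013843 to 156016612, plus strand), had 373, 662, 632 and 357 CPM in libraries 1 to 4, against 72.2, 97.9, 51.3 and 0 CPM in CD8 T cells, so the groups did not overlap. It was counted in 47.9% of the T cells without CD8 transcripts and in 16.7% of CD8 T cells, in 1.68% of B cells and in 1.75% of hormone cells. At 2000 UMIs the shares were 34.8% and 7.41% for the T cell classes in the same order.

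Not every cell that met the rule carried T cell RNA alone. The largest, in library 1, held 145506 UMIs, or 4.25% of all UMIs of these cells, of which 2 were CD3 and 47.5% came from acinar enzyme genes. The fourth largest held 102285 UMIs with 2 CD3 UMIs and 14.0% from ductal genes. In all, 73 cells (20.4%) had at least 2 UMIs summed over Fscn1, Lyz2, C1qa, Pecam1, Col1a1, Krt19 and Jchain, markers of other cell types, and 72 had over 3 times the median UMIs of their library. All 9 exocrine markers were detected, and their summed level was 32699.5 CPM in library 1, 62.1 in library 2, 8929 in library 3 and 89.2 in library 4, while the median cell had 207 CPM. Corresponding CD8 T cells had 226, 28.0, 103 and 195 CPM by library and a median cell of 109 CPM. The summed levels were therefore set by a few cells, and values without them stand beside several of the results. The term "broadly detected" below means a UMI in at least 10% of cells and no more than 20% of the UMIs in 1 cell, in the class with the higher level.

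Set beside CD8 T cells, the T cells without CD8 transcripts had more RNA of some helper, regulatory and activation genes and less of some cytotoxic and recirculation genes. A gene was called higher or lower when the log2 ratio of summed CPM, with 10 added to each, reached 1 in size with the same sign in library 1, the only library with at least 20 cells of both classes. Of 9937 genes with at least 20 UMIs in either class, 671 (6.75%) were higher and 115 (1.16%) lower. Among 6097 broadly detected genes, 226 (3.71%) were higher and 63 (1.03%) lower. The median log2 ratio over all genes was 0.10. With 54 cells on the other side, single CD8 T cells weighed heavily in some genes.

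Ranked on size alone, the genes furthest above CD8 T cells were not T cell genes. Ctrb1, a pancreatic protease precursor, led with a log2 ratio of 7.54, and 96.8% of its UMIs in these T cells came from 1 cell. Prss2 and Try5 had 98.1% and 97.5% of theirs in 1 cell. In the same size ranking, Dapl1 (log2 ratio −3.29) and Xcl1 (−3.11), a chemokine of cytotoxic cells, were among those furthest below. Xcl1 had −0.60 without the deepest cells, which is no call, and −1.55 with cells weighted equally.

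Cd4 and Tnfrsf4 were also among the broadly detected genes furthest above CD8 T cells. Of all broadly detected genes 3.71% were higher. Of 9 genes on the CD4 lineage list, 8 were broadly detected, 3 were higher and none lower, with a median log2 ratio of 0.89. Cd4 (log2 ratio 2.74, 95% counting interval 1.85 to 3.25) and Tnfrsf4 (2.62, 2.15 to 3.12) were 2 of the 3. The third was Icos, a co-stimulatory receptor of helper cells, at 221 CPM against 64.2 CPM in CD8 T cells (1.64, 1.15 to 2.15). Maf, a transcription factor of interleukin-producing helper cells, had 131, 170, 233 and 89.2 CPM in libraries 1 to 4, against 38.5, 0, 0 and 195 CPM in CD8 T cells. The groups were separate in libraries 1 to 3, while in library 4 the level of CD8 T cells came from 1 UMI in a single cell, and pooled the ratio was 2.47 (1.77 to 3.14). When cells with a single CD8 UMI joined the CD8 class, Cd4 had 1.36, Maf 1.48 and Tnfrsf4 0.77, which is no call, and 1 of the 8 genes was higher.

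Serpinb1a, a protease inhibitor, had the largest ratio of a broadly detected gene, 2.94 (2.14 to 3.61), with a UMI in 15.4% of the T cells without CD8 transcripts. The ratio was 1.24 without the cells that held RNA of other types and 2.01 with cells weighted equally. Its level was 193, 21.6, 135 and 0 CPM by library, against 19.3, 0, 7.33 and 0 CPM in CD8 T cells. Sox4, a transcription factor, had 2.94 (2.04 to 3.43), and 1.21 without the cells of over 3 times the median depth. Phactr2 and Osbpl3 had no UMI in CD8 T cells, and against a floor of 3 counts over that class they were at least 5.33-fold and at least 4.80-fold higher. Osbpl3 had a ratio of 0.61 when cells with a single CD8 UMI joined that class.

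Some regulatory genes were higher, though the count depended on which cells were compared. Of 22 on that list, 21 had enough UMIs, 9 were higher and none lower, with a median log2 ratio of 0.96. Of its 14 broadly detected genes, 6 were higher, against 3.71% of all broadly detected genes, namely Tnfrsf4, Batf (1.73), Foxp3 (1.36), Ctla4 (1.21), Tnfrsf9 (1.17) and Nrp1 (1.16). Ikzf2, which encodes the factor Helios, and Il2ra, the high-affinity receptor chain for interleukin-2, had 0.65 and 0.70 and were not called. The CD8 side turned on few cells, since 45.5% of its Ctla4 UMIs and 38.7% of its Il2ra UMIs were in 1 cell. The count of 6 became 12 of 14 without cells of over 3 times the median depth, 13 with cells weighted equally, 11 without library 1 and 2 without library 3. It was 1 when cells with a single CD8 UMI joined the CD8 class, of which 34.6% had Foxp3.

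Several activation genes were also higher. All 14 on the list had enough UMIs, and 8 were higher and none lower, with a median of 1.07. Rora, a transcription factor of tissue and innate-like lymphocytes, had 167 CPM against 52.3 CPM (1.51). S100a4 had 288 CPM against 102 CPM (1.41), and Cd44, the adhesion receptor that marks antigen-experienced T cells, had 130.3 CPM against 57.0 CPM (1.07). Of 13 broadly detected genes on the list 7 were higher and the other 6 were not called, against 3.71% higher of all broadly detected genes. The count was 2 without library 3, 4 without the deepest cells and 3 when cells with a single CD8 UMI joined the CD8 class.

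Several cytotoxic and recirculation genes were lower. Klrd1, which encodes the NK receptor chain CD94, had 21.0, 51.3, 11.6 and 446 CPM in libraries 1 to 4, against 168, 391, 264 and 779 CPM in CD8 T cells. It was lower in each library, with a pooled log2 ratio of −2.94 (−3.30 to −2.58), and overlap between the groups came only from the 5 cells of library 4. Nkg7, a cytotoxic granule protein, had 58.2, 94.6, 26.5 and 446 CPM, against 351, 419, 212 and 584 CPM (−2.36). Runx3, the transcription factor that directs the CD8 fate, had 90.6, 146, 102 and 267 CPM, against 241, 322, 300.4 and 974 CPM (−1.41). Each of these was lower in all 4 libraries taken singly. Of the 6 broadly detected genes on the cytotoxic list, 4 were lower (these 3 and Ctsw, −1.58) and none higher. Of all broadly detected genes 1.03% were lower. Ctsw had −0.48 without cells of over 3 times the median depth and −0.54 with cells weighted equally, below the limit of a call, and Klrd1 had −1.87 without the deepest cells.

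Of 14 naive and recirculation genes, 7 were lower and none higher, with a median of −0.98. Against 1.03% lower of all broadly detected genes, 6 of the 11 broadly detected ones on this list were lower. Among these were Lef1 (−1.33), Cd27 (−1.14), Bach2 (−1.09), Tcf7 (−1.06) and Klf2 (−1.05), transcription factors of resting T cells and a survival receptor. The broadly detected count was 2 of 11 without library 1, 2 of 11 without the deepest cells, 2 of 11 when cells with a single CD8 UMI joined the CD8 class, 1 of 11 without cells with RNA of other types and 1 of 11 with cells weighted equally.

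Xbp1, the gene deleted in beta cells in 2 of the samples, is also used by lymphocytes. In the T cells without CD8 transcripts it had 64.3 CPM and a UMI in 21.8% of cells, against 16.6 CPM and 7.41% in CD8 T cells (log2 ratio 1.48, 0.73 to 2.17), where it came to 7 UMIs. Of 18 unfolded-protein-response and ER chaperone genes, 7 were higher than in CD8 T cells and none lower, with a median of 0.86. Of all genes 6.75% were higher. Of the 12 broadly detected, 3 were higher (Xbp1, Pdia6 and Atf6), against 3.71% of all broadly detected genes, and none were without library 1. Against B cells, none of the 18 was higher and 7 were lower, with a median of −0.80, where 2.68% of all genes were lower. The summed level of the list in B cells was 8023 CPM, but the median B cell had 2087 CPM and the median CD8 T cell 2279 CPM. The median T cell without CD8 transcripts had 3141 CPM with Foxp3, 4867 CPM with Trdc but not Foxp3, and 2156.5 CPM with Cd4 alone. The median of the cells with none of these transcripts is not reported here. Values of this list without the deepest cells or without cells with RNA of other types are not reported here. For these T cells no comparison of genotypes could be made.

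**Figure D2:**
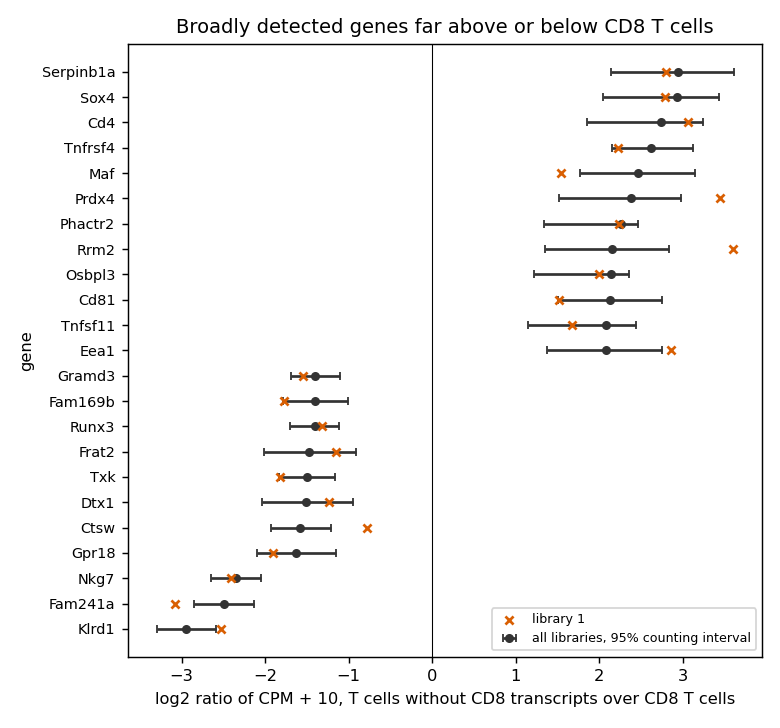
Log2 ratio of summed CPM plus 10, T cells without CD8 transcripts over CD8 T cells, for broadly detected genes far above or below CD8 T cells. Black points with bars are all libraries pooled with 95% counting intervals and orange crosses are library 1 alone; Serpinb1a (2.94) is at the high end and Klrd1 (−2.94) at the low end.

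Beside B cells, which shared the libraries and a like depth, T cell receptor genes were higher and B cell genes lower in libraries 1, 2 and 3. Both classes were chosen by their CD3 and Cd79a counts, so this contrast follows from the choice and is no separate support for identity. Of 11579 genes, 553 (4.78%) were higher and 310 (2.68%) lower, and of 7098 broadly detected genes 460 (6.48%) and 275 (3.87%). Trbc2, a beta-chain constant gene, had 683, 1618, 864 and 1070 CPM in libraries 1 to 4, against 0.704, 0, 0.985 and 0 CPM in B cells, a log2 ratio of 6.29. It was followed by Tnfrsf4 (5.08), Ikzf2 (4.98), Trac (4.96), Trbc1 (4.77), Icos (4.49), Ramp1 (4.35), Il7r (4.22) and Sh2d1a (4.22), of which Sh2d1a, a signalling adaptor, had no UMI in B cells. In the other direction all 10 B cell genes that the rule did not use were lower, led by the light chain gene Igkc (−9.75, and −6.43 without cells with RNA of other types). Cd79b had 3.34, 0, 5.29 and 0 CPM, against 973, 752, 954 and 1611 CPM in B cells. Of 15 receptor signalling genes, 12 were higher and none lower than in B cells.

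Foxp3 (chromosome X, 7573644 to 7595245, plus strand) was counted in 75 of the 357 cells, or 21.0% (16.9 to 25.6%). By library these were 33 cells (18.6%), 10 cells (21.7%), 32 cells (24.8%) and 0 of 5 cells. The intervals of libraries 1 to 3 overlapped, while the share of T cells itself differed widely between them. Foxp3 was counted in 5 of 54 CD8 T cells (9.26%), in 0 of 1249 B cells and in 0.0633% of hormone cells, and at 2000 UMIs its share was 11.2% in T cells without CD8 transcripts against 2.23% in CD8 T cells. Foxp3-positive cells were deeper, with a median of 9146 UMIs against 3658.5 in Foxp3-negative cells and 4084 in all the T cells without CD8 transcripts. Shares thinned to 2000 UMIs are therefore given beside many of the unthinned ones. The splits of these cells that follow were made on cells of the same libraries and compare cells, not animals.

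Foxp3-positive cells had higher levels of most regulatory T cell genes. Of 8990 genes, 103 (1.15%) were higher in both libraries with at least 20 cells on each side, libraries 1 and 3, and 217 (2.41%) were lower. Among 6639 broadly detected genes these were 63 (0.949%) and 73 (1.1%). Of the regulatory list, 15 genes other than Foxp3 were broadly detected, and 12 of them were higher and none lower, with a median log2 ratio of 1.59 against 0.08 over all broadly detected genes. The count stayed between 10 and 13 under each alternative that left out a library, left out large or mixed cells or asked for 3 CD3 UMIs.

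Tnfrsf9, the activation receptor 4-1BB, had 431, 300.3 and 827 CPM in Foxp3-positive cells of libraries 1, 2 and 3, against 88.5, 98.4 and 114 CPM in Foxp3-negative cells. The groups did not overlap in these libraries, and the pooled ratio was 2.31 (2.11 to 2.52). In library 4, whose 5 cells were all Foxp3-negative, Tnfrsf9 had 1605 CPM from 18 UMIs in 3 cells. That level was above every Foxp3-positive one.

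Il2ra had 246, 116 and 338 CPM in Foxp3-positive cells of libraries 1 to 3, against 68.7, 22.4 and 49.8 CPM in Foxp3-negative cells (1.93, and 1.26 without the deepest cells). Ikzf2 had 514, 225 and 853 CPM against 166, 197 and 187 CPM (1.69), a wide gap in libraries 1 and 3 and a narrow one in library 2. In the 5 cells of library 4, all Foxp3-negative, Ikzf2 had 713 CPM from 8 UMIs. Ctla4, the inhibitory receptor that regulatory cells use, had 184, 437 and 288 CPM against 48.9, 197 and 105 CPM (1.59). All of these were higher within each of the 3 libraries.

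In shares of cells the same genes co-occurred with Foxp3, also after thinning. Il2ra was counted in 64.0% of Foxp3-positive and 18.4% of Foxp3-negative cells, and at 2000 UMIs in 35.7% and 8.96%. Ikzf2 was counted in 94.7% and 37.6%, or 71.7% and 24.1% thinned, and Tnfrsf4 in 93.3% and 35.8%, or 73.3% and 23.9% thinned. Cd4 behaved otherwise. It was counted in 66.7% of Foxp3-positive and 36.5% of Foxp3-negative cells, but at 2000 UMIs in 22.9% and 21.0%.

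**Figure D3:**
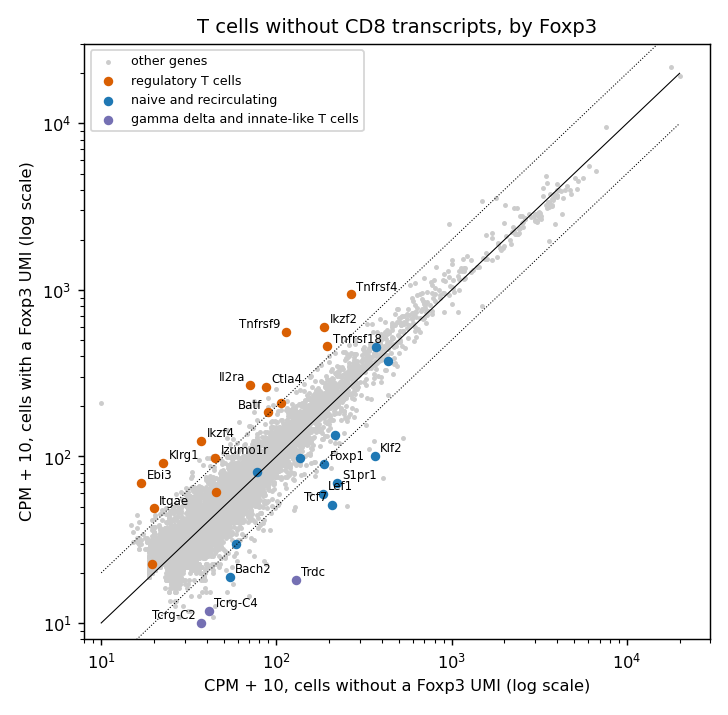
Summed level of each gene in Foxp3-positive cells (vertical) against Foxp3-negative cells (horizontal), in CPM plus 10 on log axes, with dotted lines at 2-fold. Regulatory genes such as Tnfrsf9 (550.0 against 102.9 CPM) and Tnfrsf4 (933 against 256 CPM) are above the upper line and Tcf7 (41.4 against 198 CPM) below the lower.

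A further group of genes in Foxp3-positive cells is known from regulatory cells of non-lymphoid tissue. Il1rl1, the receptor for the alarmin interleukin-33, was counted in 50.7% of Foxp3-positive and 10.3% of Foxp3-negative cells, or 30.4% and 6.55% at 2000 UMIs. Gata3, the transcription factor shared with type 2 helper cells, was counted in 60.0% and 22.0%, or 23.4% and 11.2% thinned. Klrg1, a receptor of terminally differentiated cells, was counted in 36.0% and 5.67%, or 17.9% and 2.34% thinned. Together with the chemokine receptor Ccr4, Il1rl1 and Gata3 were the 3 broadly detected genes of the type 2 list, all called higher, at log2 ratios of 1.01 to 1.10. Of all broadly detected genes 0.949% were higher in this split. None of the 3 was called without library 3.

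Areg, which encodes the tissue repair factor amphiregulin, was counted in 18.7% of Foxp3-positive and 4.96% of Foxp3-negative cells, though 44.3% of its UMIs in the Foxp3-positive cells were in 1 cell. Its log2 ratio of 2.10 became 0.72 without the deepest cells. In the 46 T cells of library 2, Klrg1 had no UMI and Il1rl1 and Areg 1 UMI each, while Gata3 had 19 UMIs in 12 cells and Ccr4 7 UMIs in 4 cells. Gata3 had 61.0, 51.3 and 94.2 CPM in libraries 1 to 3, and Klrg1 had 28.6 and 63.5 CPM in libraries 1 and 3. Among B cells Gata3 and Klrg1 were counted in 0 of 1249 and Il1rl1 in 2. The Il10 cytokine gene was counted in 16 T cells without CD8 transcripts, of which 13 had Foxp3.

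Several genes of resting and recirculating T cells were lower in Foxp3-positive cells. Tcf7, the transcription factor TCF-1, had 25.8, 61.4 and 57.6 CPM in libraries 1 to 3, against 150.5, 295 and 290 CPM in Foxp3-negative cells. It was lower in each of the 3 libraries with no overlap, and its ratio was −2.02 (−2.39 to −1.65). Of 12 broadly detected naive and recirculation genes 6 were lower and none higher, against 1.1% lower of all broadly detected genes. Beside Tcf7 these were Klf2 (−1.85), S1pr1 (−1.68), the receptor for exit from tissue, Lef1 (−1.62), Bach2 (−1.51) and Foxp1 (−1.05). Of 8 cytotoxic genes 5 were lower, among them Klrd1 (−2.00) and Ctsw (−1.94). In Foxp3-positive cells the summed dendritic cell markers had 762 CPM, with 8 of 10 detected. They had 588 CPM in all T cells without CD8 transcripts. Without cells with RNA of other types, Tcf7 had −2.415, Klrd1 −2.90 and Ctsw −2.57. The part of the dendritic cell markers alone was not tested.

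**Figure D4:**
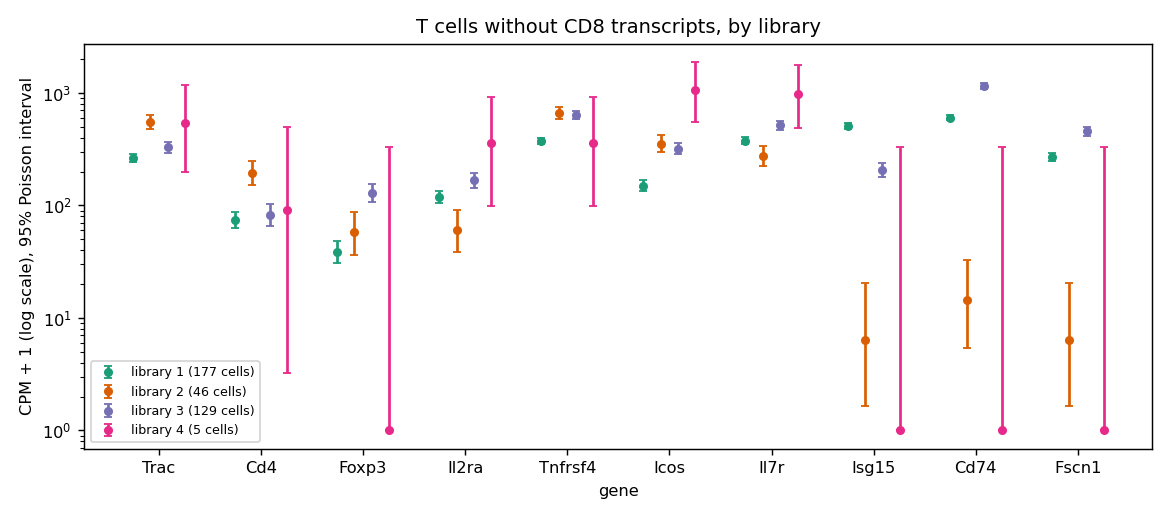
Level of 10 genes in T cells without CD8 transcripts of libraries 1 to 4, in CPM plus 1 on a log axis. Trac and Cd4 are highest in library 2 among libraries 1 to 3 (554 and 195 CPM), while Isg15, Cd74 and Fscn1 are far lower there than in libraries 1 and 3.

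Cells with a transcript of Trdc, the delta-chain constant gene (chromosome 14, 54142851 to 54148868, plus strand), numbered 36, or 10.1% of the T cells without CD8 transcripts. Apart from 2 that also had Foxp3, they were 22 cells in library 1, 1 in library 2, 11 in library 3 and 0 in library 4. None of the 36 had a Cd4 UMI, against 47.7% of the 321 Trdc-negative cells. Trac was counted in 19.4% of Trdc-positive and 76.6% of Trdc-negative cells. Trdc lies within the alpha-chain locus, and these counts do not tell rearranged from unrearranged transcripts.

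Most broadly detected gamma-delta genes were higher in Trdc-positive cells. Of 9734 genes, 254 (2.61%) were higher and 634 (6.51%) lower in library 1 and pooled, and of 4862 broadly detected genes 95 (1.95%) and 246 (5.06%). Of 7 broadly detected gamma-delta genes other than Trdc, 5 were higher and none lower, with a median log2 ratio of 3.33. A gene could count as broadly detected through the Trdc-positive cells alone, so this count is description only. Cd163l1 (chromosome 7), a scavenger receptor of gamma-delta cells, was counted in 55.6% of Trdc-positive and 0.623% of Trdc-negative cells, and in 0 of 1249 B cells and no hormone cell. Its level was 329, 0 and 185 CPM in Trdc-positive cells of libraries 1, 2 and 3, against 0.513, 2.72 and 0 CPM in Trdc-negative cells; library 2 had a single Trdc-positive cell. The gamma-chain constant Tcrg-C1 had 289, 0 and 220 CPM against 1.54, 0 and 5.83 CPM (4.44). Its neighbours Tcrg-C4 (3.33) and Tcrg-C2 (2.24, and 0.98 without library 1) were also higher. Tcrg-C2 is a near-identical copy of Tcrg-C1, and reads may be split between them.

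Outside the receptor loci, some genes for chemokine and cytokine receptors were higher in Trdc-positive cells. Of 10 broadly detected genes of the chemokine receptor and adhesion list 4 were higher (Cxcr6, Ccr2, Selplg and Cxcr3) and 2 lower (Itga4 and Ccr6), and of 9 on the cytokine receptor list 2 were higher (Il18r1 and Il2rb) and none lower. Their median log2 ratios were 0.80 and 0.40, and of all broadly detected genes 1.95% were higher and 5.06% lower. Cxcr6, a chemokine receptor of tissue-resident lymphocytes, had 557, 403 and 382 CPM in Trdc-positive cells of libraries 1 to 3, against 64.2, 65.3 and 136 CPM in Trdc-negative cells (2.40). The Trdc-positive level of library 2 was 1 UMI in 1 cell, while those of libraries 1 and 3 came from 83 and 33 UMIs. The levels of libraries 1 and 3 were above every Trdc-negative one, except the 446 CPM from 5 UMIs in library 4. Ccr2, an inflammatory chemokine receptor, had 202 CPM against 36.4 CPM (2.19). Il18r1, a receptor for interleukin-18, had a ratio of 1.64.

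Several genes of alpha-beta helper cells were lower with Trdc. Trac had 46.3 CPM in Trdc-positive cells against 333 CPM in Trdc-negative cells (−2.61). Cd5, a co-receptor that tunes signalling, had a ratio of −2.20. Cd4 at 0 UMIs was at least 7.57-fold lower against a floor of 3 counts over the class. Of 13 broadly detected regulatory genes 6 were lower, and of 11 proliferation genes 5 were lower, among them Mki67 (−2.24). Of all broadly detected genes 5.06% were lower. Without library 1 only 9 broadly detected genes were called higher with Trdc, against 95, since 12 Trdc-positive cells of library 3 and 1 of library 2 remained. Macrophage and neutrophil markers summed to 5454 CPM in cells with Trdc and no Foxp3, in 4 of the 34 cells. Without cells with RNA of other types, Trac had −3.16, Cd5 −2.80, Mki67 −3.99, Cxcr6 2.655 and Ccr2 2.18. The part of the macrophage and neutrophil markers alone was not tested.

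Variable segments were counted in part of the cells. Of 176 variable-segment genes, 52 had a UMI in these T cells, in 147 cells (41.2%). Trdv4, a delta segment, was in 22 cells, 17 of them with Trdc and no Foxp3, and in no CD8 T cell. Gamma segments were in 33 cells (9.24%), 18 of them in that same group of 34, and in 5 CD8 T cells (9.26%). Alpha segments, in 63 cells, were in none of that group, and beta segments, in 54 cells, were in 2 of it. Trav16n was counted in 9 T cells without CD8 transcripts and in 7 CD8 T cells. No clonal relation can be read from these counts, which hold no joined sequences.

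Taking Foxp3 first, then Trdc, then Cd4, the cells fell into 75 with Foxp3, 34 with Trdc, 103 with Cd4 alone of the 3, and 145 with none. These divisions were chosen after the data were seen. The last group had the fewest UMIs, a median of 3075, and 134 T cells without any of the 3 transcripts carried an alpha- or beta-chain constant UMI. As with Cd4, a cell with no CD8 UMI cannot be told apart from a cell whose CD8 RNA was missed. Cells with Cd4 but not Foxp3 had Tcf7 in 77.7%, against 22.7% with Foxp3, 32.4% with Trdc and 51.0% with none. Il7r, the interleukin-7 receptor, was counted in 74.7% with Foxp3, 88.2% with Trdc, 65.0% with Cd4 and 64.8% with none. In this order the groups had median depths of 9146, 3514, 4830 and 3075 UMIs, and these shares of Tcf7 and Il7r are unthinned. The exocrine markers were uneven, at 61907 CPM in the group with none of the 3 transcripts, which holds the largest acinar-rich cell, and 7703 CPM with Foxp3, 10173 CPM with Trdc and 2263 CPM with Cd4.

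**Figure D5:**
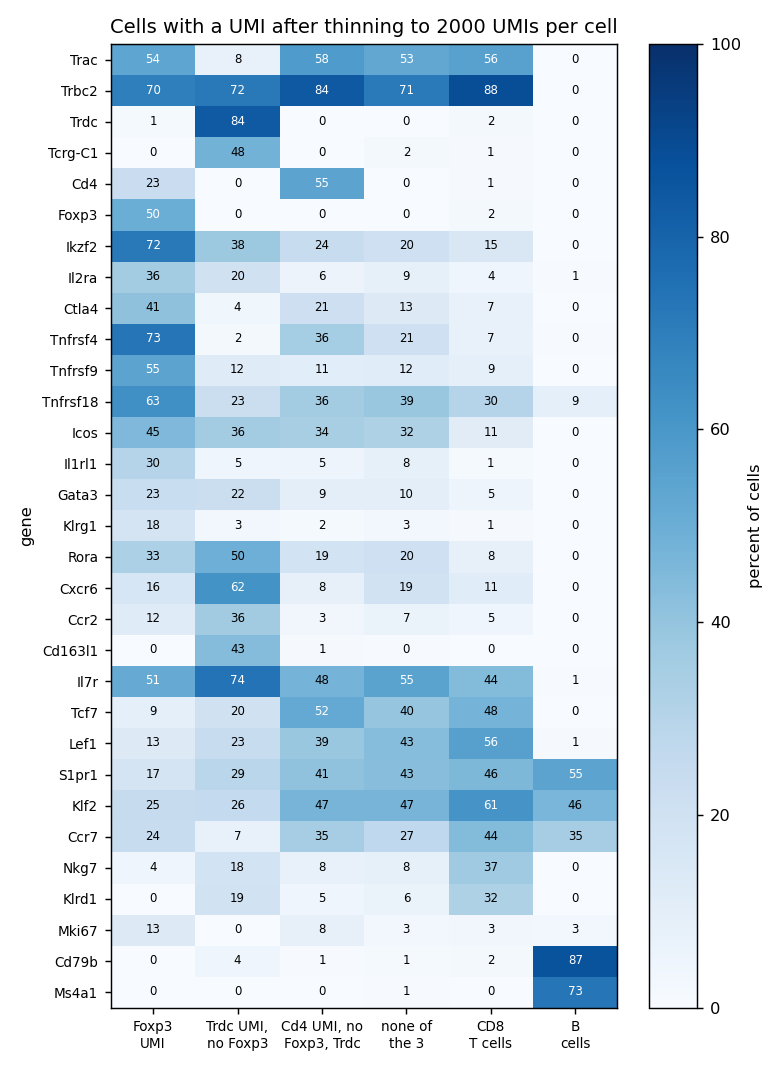
Expected percentage of cells with a UMI of each listed gene after thinning to 2000 UMIs per cell, in the 4 divisions of the T cells without CD8 transcripts and in CD8 T cells and B cells. Foxp3-positive cells have Ikzf2 in 71.7% and Trdc-positive cells without Foxp3 have Cxcr6 in 61.9%.

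When cells were compared by Cd4 itself, gamma-delta genes were among those lower and proliferation genes among those higher. Of 8656 genes 171 (1.98%) were higher and 132 (1.52%) lower in Cd4-positive cells, and of 6928 broadly detected genes 124 (1.79%) and 27 (0.39%). All 6 broadly detected gamma-delta genes were lower, with a median log2 ratio of −2.33. None of the 36 Trdc-positive cells had a Cd4 UMI, so all of them were on the Cd4-negative side. A gene could count as broadly detected through that side alone, so the count of 6 is description only. Of 15 broadly detected proliferation genes 12 were higher, with a median of 1.73. Top2a, which untangles DNA in dividing cells, had 374, 222, 201 and 0 CPM in Cd4-positive cells of libraries 1 to 4, against 48.0, 0, 59.3 and 0 CPM in Cd4-negative cells, a ratio of 2.40 that became 1.04 without the deepest cells. Without cells of over 3 times the median depth none of the 15 was called and the median was 0.44. Mki67, a marker of cycling cells, was counted in 48 cells, of which 79.2% had Cd4 against 37.2% of the others, but at 2000 UMIs the shares with Cd4 were 24.0% and 21.0%.

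Effector cytokine genes were sparse. Ifng, the type 1 cytokine, came to 10 UMIs in 7 cells, and Tbx21, the type 1 transcription factor, was counted in 16 cells (4.48%) against 3 CD8 T cells (5.56%). Il4 and Il13 were counted in 2 cells each, Il5 in 6, Il21 in 4 and Il2 in 3. Bcl6 and Cxcr5, genes of follicular helper cells, were counted in 41 and 20 cells. At these depths a cell without such a UMI may still express the gene.

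Il17a was counted in 5 cells with 426 UMIs in all, and 406 of them were in 1 cell of library 3 that had 11 Trac and no Trdc UMIs. The other 4 cells were in library 1 with 8, 7, 4 and 1 UMIs, and 2 of them had Trdc. Gzmb, a cytotoxic protease, was counted in 33 cells (9.24%) against 5 CD8 T cells (9.26%). Pdcd1, which encodes the inhibitory receptor PD-1, was counted in 34.2% of T cells without CD8 transcripts and in 13.0% of CD8 T cells. Its log2 ratio was below the limit of a call.

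Some genes differed widely between libraries. Over 6373 broadly detected genes with at least 50 UMIs, the range of log2 CPM over libraries 1 to 3 had a median of 0.46, and it reached 1 in 722 genes and 2 in 119. Isg15, an interferon-induced gene, had 511, 5.40, 204 and 0 CPM in the T cells without CD8 transcripts of libraries 1 to 4. In all other kept cells of those libraries it had 352, 3.39, 158 and 2.79 CPM. The T cells thus followed the level of the rest of their library.

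Cd74, the MHC class II chaperone, had 603, 13.5, 1154 and 0 CPM in these T cells and 1011, 96.5, 774 and 38.7 CPM in the other cells of libraries 1 to 4. Fscn1, an actin-bundling protein of mature dendritic cells, had 269, 5.40, 454 and 0 CPM, and 102, 8.86, 89.9 and 4.27 CPM in the other cells. It was counted in 25.7% of the 136 cells with Ccr7, a receptor that recirculating T cells and mature dendritic cells share, and in 3.17% of cells without it. These are genes of dendritic and B cells, and such markers were uneven here too, the summed dendritic list at 549, 56.7, 889 and 0 CPM and the B cell list at 1126, 243, 2044 and 89.2 CPM by library. Their part in the differences between libraries was not tested.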

How the data were processed

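The deposited values are UMI counts for each gene in each cell. Per the submitters' processing notes the tool was Cell Ranger 6.1.2 and the build mm10; the file headers name the tool too. The version of the annotation used is not stated in these sources. The matrix, which pools 19987 barcodes over 32285 genes, had 66890401 entries, each a whole number above 0. The number at the end of each barcode was taken as its library. Members of the cell class and the 31 gene lists (373 genes, 371 in the files) were chosen with earlier results of these data known.

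For each class, UMIs were added up within a library and given as CPM with exact Poisson intervals, and shares of cells have exact Clopper-Pearson intervals at 95%. Ratios are log2 of CPM with a pseudocount of 10, for genes with at least 20 UMIs in either class. A call needs a log2 ratio of 1 in size and the same sign in each library with at least 20 cells of both classes. Cells are not replicates and the libraries are in no group, so there is no test and no p-value. Expected shares at 2000 UMIs are hypergeometric. Named genes are members of the lists, the 12 furthest each way (at least 50 UMIs) against CD8 T cells and B cells, the 10 furthest each way (at least 30 UMIs) in splits by Foxp3 or Cd4, and the 10 with the widest range between libraries. The limit to broadly detected genes, under which the same rankings were repeated, the split by Trdc and the 4 divisions were chosen after seeing the data. No doublet caller was run, and cells with RNA of more than 1 type remain. The ratio was checked on simulated counts. Python 3.11.15, numpy 2.4.6, scipy 1.17.1, pandas 2.3.3 and matplotlib 3.10.9 were used. Some genes of the lists are not reported here.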

Additional observations from a re-analysis of the deposited data

How the results depend on the processing

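In all, 4407 alternative values were computed under 17 settings, of which 3425 kept their direction and stayed within the set limits, 961 moved and 21 changed sign. Calls are by size, so they depend on the constant added to each level and on how large cells are weighted. No paired analysis was possible because the labels give no shared replicate numbers and the libraries are tied to no sample. The settings that left out cells with RNA of other types, and the limit to broadly detected genes, were chosen after seeing the data. Depth limits the shares most, since thinning to 2000 UMIs gave 21.4% with Cd4 in place of 42.9% and 11.2% with Foxp3 in place of 21.0%.

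With a pseudocount of 1, genes higher and lower than in CD8 T cells were 1678 and 286, or 491 and 139 broadly detected, and against B cells 1077 and 514. For Foxp3 they were 253 and 534, or 170 and 152 broadly detected, for Cd4 374 and 237, or 273 and 75, and for Trdc 181 and 514 broadly detected. With cells weighted equally (the mean CPM over cells), broadly detected genes were 413 higher and 38 lower than in CD8 T cells, 220 and 151 for Foxp3, 52 lower for Cd4, and 181 and 489 for Trdc, and 275 of all genes were higher for Foxp3. With CD8 T cells taken from 1 CD8 UMI, 413 genes were higher and 46 lower, or 80 and 30 broadly detected, and Tnfsf11 had −0.092 (2.08 in the report's setting). With 3 CD3 UMIs required, 51 broadly detected genes were lower for Cd4.

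Without cells of over 3 times the median depth, 36.1% of cells had Cd4 and 15.4% Foxp3, and 32 broadly detected genes were lower than in CD8 T cells. In that setting Foxp3 gave 192 higher and 329 lower, or 130 and 202 broadly detected, and Cd4 34 higher, or 30 higher and 83 lower broadly detected. Without cells with RNA of other types, 76 genes, 26 of them broadly detected, were lower than in CD8 T cells. There 171 genes were higher for Foxp3, and 174, 102 and 426 broadly detected genes were lower for Foxp3, Cd4 and Trdc.

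Leaving out each library in turn left 180 to 352 T cells. Genes higher than in CD8 T cells then ranged from 675 to 833, or 231 to 376 broadly detected, and lower from 103 to 208, or 38 to 74. Without library 1, no library held 20 cells of both classes and calls were by size alone. For Foxp3 the range was 104 to 224 higher and 213 to 465 lower, or 37 to 80 and 69 to 133 broadly detected. For Cd4 it was 172 to 311 and 129 to 351, or 62 to 223 and 27 to 75, and for Trdc 9 to 112 and 248 to 756 broadly detected.

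The changes of sign concerned 11 genes, among them Tnfsf11 above. Between T cells without CD8 transcripts and CD8 T cells, Ccl8 (−3.28) had 0.76 with no Cd79a UMI allowed, 0.11 without the deepest cells and 0.089 without mixed cells, and Retnla (−3.04) had 2.11 with no Cd79a UMI allowed and 0.0065 without mixed cells. Leaving out each library in turn gave −4.24 to 1.19 for Ccl8, −5.59 to 3.23 for Retnla, −0.14 to 7.70 for Ctrb1 (7.54) and −0.093 to 7.61 for Try5 (7.37), with the change of sign without library 1. In the Foxp3 split, Cxcl2 (1.97) had −0.38 with 3 CD3 UMIs, −1.63 without the deepest cells and −1.26 without mixed cells. Slpi (2.82) had −0.49 and −0.25 in the last pair of settings, Pnliprp1 (−5.94) had 0.036 without the deepest cells and Ctrb1 (−8.59) −8.71 to 0.0034 with each library left out, the change of sign again without library 1. In the Cd4 split, Cxcl12 (2.51) had −0.35 without the deepest cells and −0.40 without mixed cells, Hist1h1b (2.77) had −0.35 without the deepest cells and Plvap (2.82) −0.21 without mixed cells. For these genes the cause was not tested.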
